A study of Mus musculus with 4 samples.

Results

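Basigin (Bsg), neuroplastin (Nptn) and embigin (Emb), the 3 genes of the basigin family, were examined with Slc16a1, the gene of the lactate transporter MCT1, across 6 cell classes of the mouse retina. The 4 genes were taken by name from the deposited isoform table, through the Ensembl gene identifier in each row, and not by any measured value. They are 4 of 16702 genes in the table, and their 10 isoforms are among 44325. The long and short isoforms of Bsg and Nptn were told apart by the exons of the deposited transcript models.

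The retinas came from male wild-type C57BL6/J mice and were dissociated with papain into 4 single-cell libraries. Of these, 2 had no enrichment, 1 at postnatal day 40 and the other with no age in the labels, 1 at postnatal week 8 had CD73 enrichment, and 1 at postnatal month 4 had CD90.2 enrichment. CD73 marks photoreceptors, and the protocol keeps the CD73-negative cells of a magnetic separation. CD90.2 is a neuronal surface protein and was used for positive selection. The single-cell cDNA, made with 10x Genomics chemistry, was read as full-length molecules on a nanopore PromethION.

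The table gives whole-number counts per isoform in 1 column per cell class, for amacrine cells, bipolar cells, cones, Müller glia, rods and retinal ganglion cells. The columns name no library, so each class is 1 pooled sample and no value here has a replicate. Accordingly no test between classes was made. The 95% intervals given in brackets are exact Poisson intervals for levels, exact Clopper-Pearson intervals for shares and exact conditional intervals for ratios. They cover counting error only, since reads may not be independent molecules and animals may differ. Levels are counts per 1000000 counts of the column (CPM). In them, a smaller part of the class's cells expressing a gene and less of its RNA per expressing cell cannot be told apart. Column totals ran from 3509890 counts in ganglion cells to 55437340 in rods. A count of 0 was set against a floor of 3 counts, which is 0.855 CPM in ganglion cells and 0.0541 CPM in rods. The exact Poisson interval for 0 counts reaches higher, to 1.05 CPM in ganglion cells.

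Each class's 6 fixed marker genes were highest in the column of that name, for all 6 classes. The Müller glia column also held genes of cells that have no column. Of the listed pigment epithelium markers 5 of 6 were highest there, at 8878 CPM in sum against 2.85 to 62.4 CPM in the other columns, with Best1 at 0. All 3 hemoglobin genes (11058 CPM in sum) and all 6 microglial markers (1623 CPM) were highest there as well. In the other columns hemoglobin genes were at 2.56 to 2364 CPM and microglial markers at 9.97 to 697 CPM, both highest in rods. All 3 measured pericyte markers (355 CPM) and all 3 measured endothelial markers (135 CPM) were also highest in Müller glia. So were both measured astrocyte markers, Gfap and Aldh1l1 (82.8 CPM). The part of cells without a column in the values below, in Müller glia and in the other classes, was not tested. In the ganglion cell column all 6 rod markers and all 6 cone markers were at 0, and 7848 genes had a count, against 11805 to 14984 in the other columns.

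Basigin, neuroplastin and embigin are membrane glycoproteins with immunoglobulin domains and short cytoplasmic tails, and they act as chaperones that bring other membrane proteins to the cell surface. Basigin carries the lactate transporters MCT1 and MCT4, embigin carries MCT2, and neuroplastin and basigin are subunits of plasma membrane calcium pumps. In the retina, photoreceptors make lactate by aerobic glycolysis, and lactate passes between photoreceptors, Müller glia and the pigment epithelium. Long basigin has an additional immunoglobulin domain at its amino-terminal end, is known from photoreceptors, and binds the rod-derived cone viability factor. Long neuroplastin likewise has an additional immunoglobulin domain and is known from neurons, and the short form is found widely.

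The additional domain of each protein rests on 1 cassette exon, an exon that is either spliced in or skipped. In Bsg (ENSMUSG00000023175.15, plus strand, chr10:79704491-79711969 in GRCm38) it is a coding exon at chr10:79708697-79709044, carried by ENSMUST00000067036.11 and skipped in ENSMUST00000179781.7. In Nptn (ENSMUSG00000032336.17, plus strand, chr9:58582240-58657955) it is a coding exon at chr9:58618663-58619010, carried by ENSMUST00000177292.7 of the annotation. Both exons have 348 bases, a multiple of 3, so that the exon can be skipped without a shift of the reading frame. Coding length in GENCODE M21 is 1167 bases for long and 819 for short Bsg, and 1191 bases for long and 843 for short Nptn (ENSMUST00000085651.11). The exons aligned over 348 columns with 0 gaps, and 204 bases (58.6%) were the same. Their GC content was 64.1% in Bsg and 57.5% in Nptn. The first 300 bases of each are shown 5′ to 3′ on the plus strand, chr10:79708697-79708996 for Bsg and chr9:58618663-58618962 for Nptn, with positions that are the same in both exons in capitals, to show how alike the switched exons are.
Bsg cassette exon: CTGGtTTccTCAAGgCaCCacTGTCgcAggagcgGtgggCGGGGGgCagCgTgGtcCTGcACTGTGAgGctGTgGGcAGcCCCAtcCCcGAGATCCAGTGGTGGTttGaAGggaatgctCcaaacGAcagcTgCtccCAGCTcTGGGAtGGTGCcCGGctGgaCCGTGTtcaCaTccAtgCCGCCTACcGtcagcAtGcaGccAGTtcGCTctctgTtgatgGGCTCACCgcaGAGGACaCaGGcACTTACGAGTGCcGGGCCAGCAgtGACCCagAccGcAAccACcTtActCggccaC
Nptn cassette exon: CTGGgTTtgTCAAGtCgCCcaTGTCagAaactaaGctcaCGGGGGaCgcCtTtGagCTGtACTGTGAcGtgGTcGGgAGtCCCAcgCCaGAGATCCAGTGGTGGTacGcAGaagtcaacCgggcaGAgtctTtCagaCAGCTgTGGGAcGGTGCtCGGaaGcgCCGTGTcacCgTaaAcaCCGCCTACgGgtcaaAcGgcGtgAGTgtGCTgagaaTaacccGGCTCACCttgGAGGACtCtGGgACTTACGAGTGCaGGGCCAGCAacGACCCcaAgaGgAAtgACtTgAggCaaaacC

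The junctions that separate the long from the short isoforms are shown next, as 30 bases on each side, because a read is placed in one form or the other by them. Capitals mark cassette exon sequence, and all bases are coding in GENCODE M21 (GRCm38), from which they were taken. In Bsg the exon before the cassette ends at chr10:79704555-79704584 and the exon after it starts at chr10:79709671-79709700.
Bsg into the exon: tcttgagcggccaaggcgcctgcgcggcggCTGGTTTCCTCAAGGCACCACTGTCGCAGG
Bsg out of the exon: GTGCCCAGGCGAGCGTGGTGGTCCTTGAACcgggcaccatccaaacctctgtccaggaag
Bsg exon skipped: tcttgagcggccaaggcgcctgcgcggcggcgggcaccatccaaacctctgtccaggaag
In Nptn the flanking stretches are chr9:58582497-58582526 and chr9:58623687-58623716.
Nptn into the exon: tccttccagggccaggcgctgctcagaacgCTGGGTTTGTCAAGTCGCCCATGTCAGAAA
Nptn out of the exon: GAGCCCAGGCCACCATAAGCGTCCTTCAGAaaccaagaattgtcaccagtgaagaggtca
Nptn exon skipped: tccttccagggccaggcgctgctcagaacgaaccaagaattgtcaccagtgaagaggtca

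**Figure D1:**
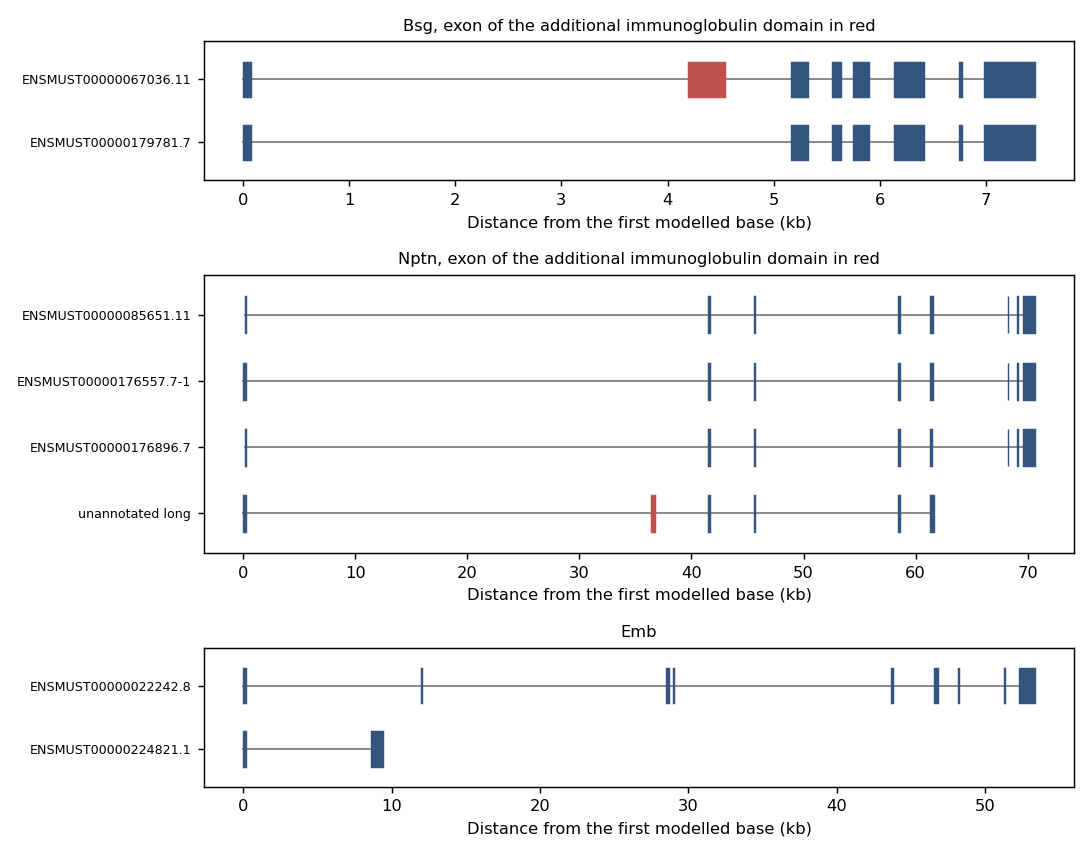
Exons of the deposited Bsg, Nptn and Emb transcript models, with distance in kb from the first modelled base on the x axis and 1 row per isoform, the cassette exons in red. The 348-base cassette exon is present in 1 Bsg model and in 1 Nptn model, and that Nptn model lacks the last exons of the others.

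Bsg was highest in Müller glia, and the form of the message differed between photoreceptors and glia. Müller glia had 9946 CPM (9867 to 10025), bipolar cells 2708 CPM (2689 to 2727) and cones 2279 CPM (2245 to 2314). Amacrine cells had 1237 CPM (1227 to 1247), rods 1230 CPM (1221 to 1240) and ganglion cells 948 CPM (916 to 981). Müller glia stood 3.67-fold above bipolar cells (3.63 to 3.71), the next in order, and 8.08-fold above rods (8.00 to 8.17). Amacrine cells and rods could not be told apart, with a ratio of 1.01 (0.994 to 1.02).

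**Figure D2:**
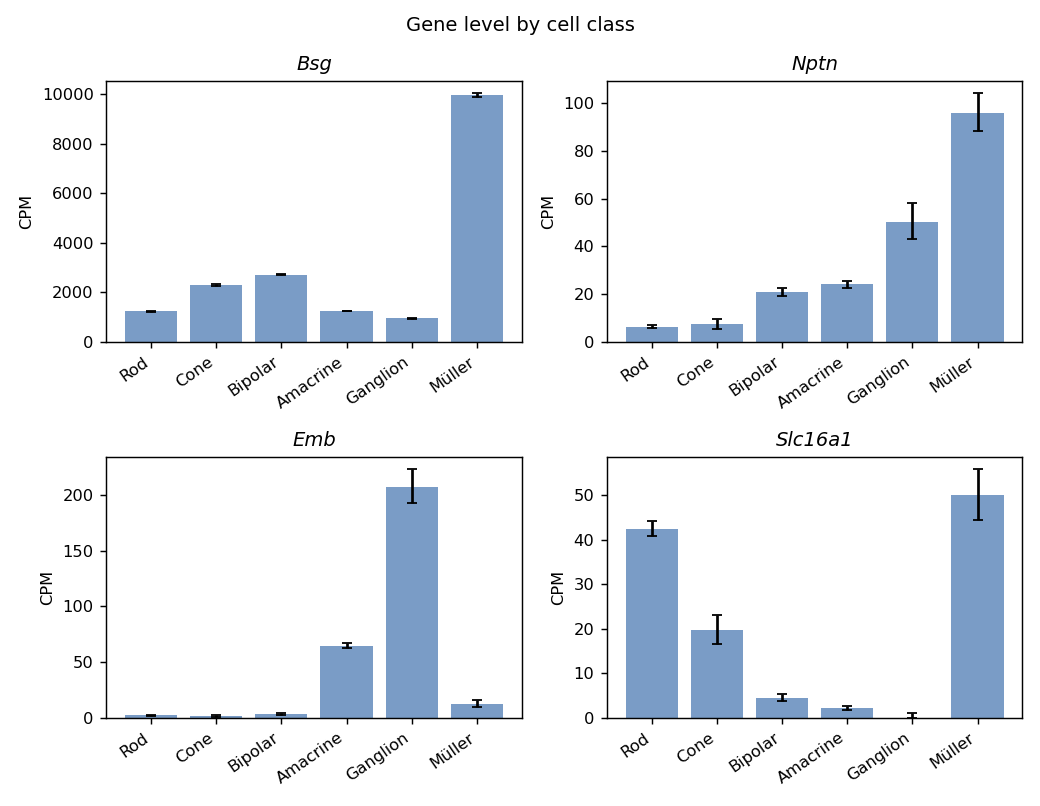
Levels of Bsg, Nptn, Emb and Slc16a1 in CPM on a linear axis by cell class, with 1 bar per pooled column and exact Poisson 95% intervals for counting error. Bsg and Nptn were highest in Müller glia, Emb in ganglion cells, and Slc16a1 in Müller glia and rods with 0 counts in ganglion cells.

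Long Bsg made up most of the Bsg message in photoreceptors and very little of it in Müller glia and ganglion cells. Its share of Bsg counts was 87.2% in cones (86.7 to 87.7, 14528 of 16655 counts) and 85.8% in rods (85.5 to 86.0, 58491 of 68209). In bipolar cells it was 62.9% (62.6 to 63.3, 49434 of 78567). The exon was thus present in most Bsg counts of these 3 classes, which form the pathway from photoreceptor to second-order neuron. In amacrine cells the long share was 19.5% (19.2 to 19.8, 11650 of 59661). In Müller glia it was 2.39% (2.27 to 2.52, 1460 of 61000), and in ganglion cells 0.270% (0.124 to 0.513, 9 of 3328). No 2 of these 6 intervals overlapped. At 3328 to 78567 counts the intervals are narrow, so that even those of rods and cones lay apart. For how many other genes this holds was not counted.

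**Figure D3:**
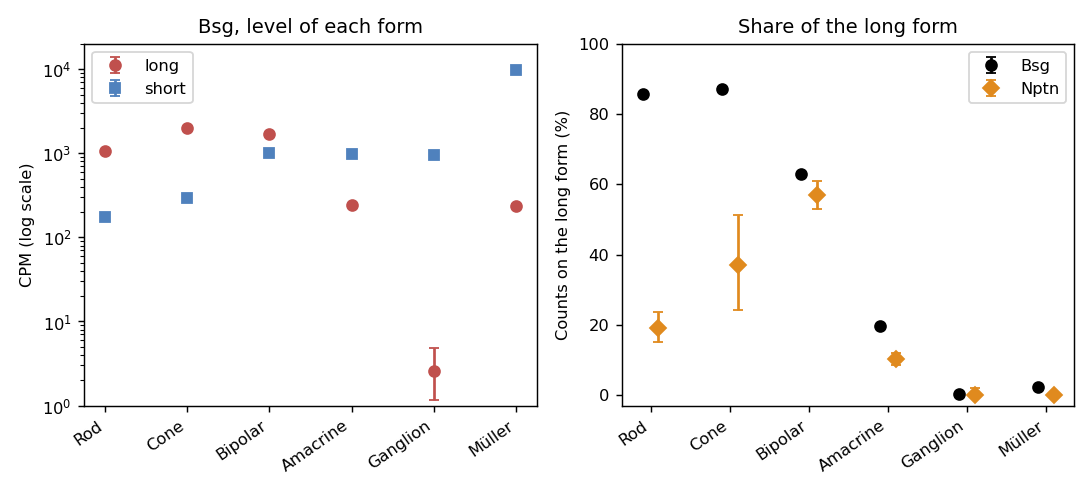
Left, levels of long and short Bsg in CPM on a log axis by cell class, with exact Poisson 95% intervals for counting error. Right, share of counts in percent on the long isoform of Bsg and of Nptn by cell class, with exact Clopper-Pearson 95% intervals for counting error. Long Bsg was 87.2% in cones and 85.8% in rods against 2.39% in Müller glia, and long Nptn was 57.0% in bipolar cells and had 0 counts in Müller glia and ganglion cells.

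As a level, long Bsg was not restricted to the photoreceptor columns. It stood at 1988 CPM in cones, 1704 CPM in bipolar cells and 1055 CPM in rods. Bipolar cells were 1.62-fold above rods (1.60 to 1.63) and cones 1.88-fold above rods (1.85 to 1.92). Müller glia at 238 CPM (226 to 251) and amacrine cells at 241 CPM (237 to 246) had overlapping intervals, and ganglion cells had 2.56 CPM (1.17 to 4.87). The level of long Bsg in bipolar cells was 162% of that in rods. In bipolar cells the 6 rod markers together were at 1.74% of their rod level and the 6 cone markers at 0.813% of their cone level. In Müller glia long Bsg was at 22.6% of the rod level, with rod markers at 5.91%. In amacrine cells it was at 22.9%, with rod markers at 0.642%, cone markers at 0.0590% and bipolar markers at 0.421% of their own class. The part of RNA from other classes in these values was not tested.

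Short Bsg followed another order. It was 9708 CPM in Müller glia, 1004 CPM in bipolar cells (993 to 1016), 995 CPM in amacrine cells (986 to 1004) and 946 CPM in ganglion cells (914 to 978). It was 291 CPM in cones and 175 CPM in rods. The 3 inner retinal neuron classes therefore lay close together, with bipolar over amacrine cells at 1.01-fold (0.995 to 1.02) and ganglion over amacrine cells at 0.95-fold (0.917 to 0.984). Müller glia stood 9.67-fold above bipolar cells and 55.4-fold above rods (54.2 to 56.6). In rods short Bsg was at 1.81% of its Müller glia level, below the 2.89% at which the 6 Müller glia markers stood in that column. In cones it was at 3.0%, with Müller glia markers at 0.986%. The part of Müller glia RNA in the photoreceptor values was not tested.

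The distance between the isoform shares of 2 classes, in percentage points, was used to set Bsg beside all genes. It is the part of the counts that would have to move to another isoform to make both classes alike. Between all pairs of classes, 10.9% of tested gene pairs (6625 of 60898, each with 2 or more isoforms and at least 20 counts in both classes) were 50 points or more apart. For Bsg it was 8 of 15 pairs, for Nptn 7 of 15 and for Emb 1 of 10, while Slc16a1 has 1 isoform and could not be scored. Cones and Müller glia were 84.8 points apart in Bsg, where 5.49% of genes were past 50 points, the median gene was 8.78 points apart and 31 of 3391 genes were farther apart. Müller glia and rods were 83.4 points apart, where 6.23% were past 50 points and 32 of 4015 genes were farther apart. Rods and cones were 1.48 points apart, and 3623 of 4201 genes were farther apart than that. Müller glia and ganglion cells, whose Bsg levels differed by 10.5-fold, were 2.12 points apart in form.

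Nptn was highest in Müller glia too, at a lower count. Its level was 96.0 CPM in Müller glia (88.4 to 104, 589 counts), 50.1 CPM in ganglion cells (43.0 to 58.1, 176 counts) and 24.1 CPM in amacrine cells (22.7 to 25.5, 1162 counts). In bipolar cells it was 20.8 CPM (19.2 to 22.5, 604 counts), in cones 7.39 CPM (5.55 to 9.64, 54 counts) and in rods 6.31 CPM (5.67 to 7.01, 350 counts). With Ensembl transcripts only, which leaves out the long isoform described next, the bipolar cell level was 9.45 CPM. Photoreceptors were thus the lowest classes, and Müller glia stood 15.2-fold above rods (13.3 to 17.4) and 1.92-fold above ganglion cells (1.62 to 2.28). Cones and rods could not be told apart, with a ratio of 1.17 (0.862 to 1.56).

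The long form of Nptn was a bipolar cell form more than a photoreceptor form. Its share of Nptn counts was 57.0% in bipolar cells (52.9 to 60.9, 344 of 604), 37.0% in cones (24.3 to 51.3, 20 of 54) and 19.1% in rods (15.2 to 23.7, 67 of 350). It was 10.2% in amacrine cells (8.48 to 12, 118 of 1162). No count was long among 589 in Müller glia, which allows a share of up to 0.624%, or among 176 in ganglion cells, which allows up to 2.07%. As a level, long Nptn was 11.9 CPM in bipolar cells, 2.74 CPM in cones, 1.21 CPM in rods and 2.45 CPM in amacrine cells, and bipolar cells stood 9.81-fold above rods (7.53 to 12.9). Rod markers in the bipolar column were at 1.74% of their rod level. The part of rod RNA in the bipolar cell value was not tested.

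The only long Nptn isoform in the table has no Ensembl identifier. Its model has 6 exons over 1420 bases at chr9:58582240-58643915, and its 5 introns are all found in ENSMUST00000177292.7. It ends 113 bases past the splice site that closes the exon ending at position 58643802, and holds none of the exons after it. The other 3 Nptn isoforms run on into those exons, so that long and short counts come from molecules with different 3′ ends. Whether long molecules with the later exons were present could not be seen in this table.

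A second exon of Nptn divided the classes in another way. Close to the end of the coding sequence, an exon of 22 bases uses either of 2 splice acceptors, and the upstream one adds 12 coding bases at chr9:58650497-58650508, known to encode a short stretch of the cytoplasmic tail. The stretch is shown from 20 bases before that exon, with the added bases in capitals, as ENSMUST00000085651.11 and ENSMUST00000176557.7 carry it, because the forms are told apart by these bases. The deposited models of these isoforms also differ in where the first exon starts, at 58582407 with the insert and 58582240 without it. The other isoform with the insert, ENSMUST00000176896.7, has a shorter exon before it, of 156 bases.
Nptn with the insert: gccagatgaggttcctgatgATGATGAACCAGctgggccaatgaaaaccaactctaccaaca
Nptn without the insert: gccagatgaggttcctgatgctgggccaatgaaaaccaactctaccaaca
Among isoforms that reach this exon, the insert was included in 98.6% of counts in Müller glia (97.3 to 99.4, 581 of 589), 88.3% in rods (84.0 to 91.8, 250 of 283) and 85.3% in cones (68.9 to 95, 29 of 34). In bipolar cells it was 76.2% (70.5 to 81.2, 198 of 260) and in amacrine cells 49.5% (46.4 to 52.6, 517 of 1044). In ganglion cells 0 of 176 counts had it, which allows up to 2.07%. Glia and ganglion cells, which both lacked long Nptn, were thus at opposite ends for the insert, and rods and cones had overlapping intervals.

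The short isoforms with and without the insert divided between the classes. ENSMUST00000085651.11, with the insert, held 555 of the 589 counts in Müller glia, 231 in rods and 499 in amacrine cells. ENSMUST00000176557.7-1, without it, held 527 counts in amacrine cells, 62 in bipolar cells and all 176 in ganglion cells. ENSMUST00000176896.7, which the annotation types as a nonsense-mediated decay transcript, held 26 counts in Müller glia and 19 in rods, and 0 in cones and ganglion cells. Among the short isoforms, the 274-base exon at chr9:58643529-58643802 was used in full by 93.3% of counts in rods (264 of 283) and by a larger share in the other 5 classes. The long isoform, which runs past the end of that exon, is not in these shares. Isoform distances for Nptn were 98.6 points between Müller glia and ganglion cells, 65.9 points between bipolar cells and Müller glia and 54.1 points between amacrine cells and Müller glia. For these 3 pairs, 15.2%, 5.95% and 12.9% of all genes were past 50 points.

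**Figure D4:**
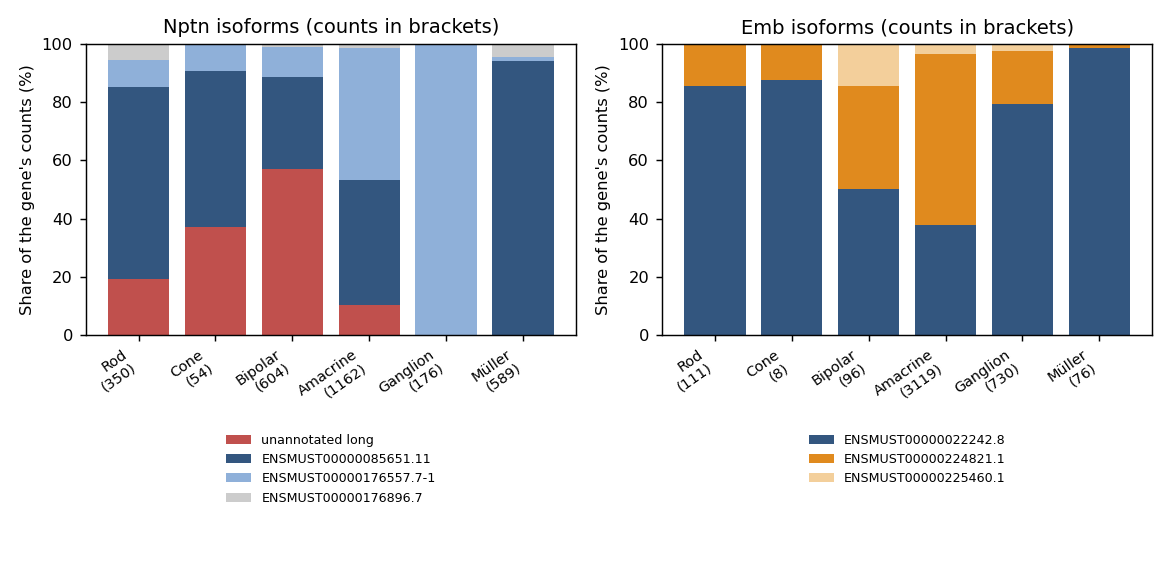
Stacked shares in percent of the Nptn and Emb counts by isoform, with 1 bar per cell class and the gene's counts in brackets. The long Nptn isoform had 57.0% of counts in bipolar cells, and the 2-exon Emb transcripts had 62.1% in amacrine cells.

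Emb (ENSMUSG00000021728.8, plus strand, chr13:117208536-117274415) was a gene of ganglion and amacrine cells. Its level was 208 CPM in ganglion cells (193 to 224, 730 counts), 64.6 CPM in amacrine cells (62.4 to 67.0, 3119 counts) and 12.4 CPM in Müller glia (9.76 to 15.5, 76 counts). It was 3.31 CPM in bipolar cells (2.68 to 4.04, 96 counts), 2.00 CPM in rods (1.65 to 2.41, 111 counts) and 1.09 CPM in cones (0.473 to 2.16, 8 counts). Ganglion cells stood 3.22-fold above amacrine cells (2.96 to 3.49), 16.8-fold above Müller glia and 104-fold above rods. Cones and rods could not be told apart, with a ratio of 0.547 (0.230 to 1.12).

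Much of the Emb signal in amacrine cells came from transcripts without a coding sequence. ENSMUST00000022242.8 is the coding transcript, with 9 exons, and the table also lists ENSMUST00000224821.1 and ENSMUST00000225460.1, which GENCODE M21 types as processed transcripts of 2 exons. The 3 share 1 splice donor and then part, as the 30 bases on each side of the first junction show, where capitals mark the next exon. The shared stretch is chr13:117220928-117220957, and the next exon starts at chr13:117232727 in the coding transcript, at chr13:117229342 in ENSMUST00000224821.1 and at chr13:117225532 in ENSMUST00000225460.1.
Emb coding: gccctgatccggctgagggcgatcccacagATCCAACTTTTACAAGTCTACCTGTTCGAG
Emb ENSMUST00000224821.1: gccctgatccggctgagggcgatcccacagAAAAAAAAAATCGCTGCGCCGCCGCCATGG
Emb ENSMUST00000225460.1: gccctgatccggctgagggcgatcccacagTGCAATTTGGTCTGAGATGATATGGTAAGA
The exon of ENSMUST00000224821.1 opens with 10 A. The share of Emb counts on the 2-exon transcripts was 62.1% in amacrine cells (60.4 to 63.8, 1937 of 3119) and 50% in bipolar cells (39.6 to 60.4, 48 of 96). It was 20.7% in ganglion cells (17.8 to 23.8, 151 of 730), 14.4% in rods (8.47 to 22.4, 16 of 111), 12.5% in cones (0.316 to 52.7, 1 of 8) and 1.32% in Müller glia (0.0333 to 7.11, 1 of 76). Amacrine cells were 60.8 points from Müller glia, where 12.9% of genes were past 50 points. That was the only Emb pair past 50 points, with amacrine cells and rods at 47.7 points.

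Split by kind, the ratio of ganglion to amacrine cells was highest for the coding transcript and differed between the 2-exon transcripts. Coding Emb was 165 CPM in ganglion cells (152 to 179) and 24.5 CPM in amacrine cells (23.1 to 25.9), a ratio of 6.73 (6.09 to 7.44). The 2-exon transcripts were at 43.0 CPM in ganglion cells (36.4 to 50.5) and 40.1 CPM in amacrine cells (38.4 to 42.0), with overlapping intervals. For ENSMUST00000224821.1 alone the ratio was 0.999 (0.831 to 1.19, 133 and 1830 counts). For ENSMUST00000225460.1 it was 2.31 (1.32 to 3.83), on 18 counts in ganglion cells and 107 in amacrine cells, so that this transcript was also higher in ganglion cells. Coding Emb was 12.2 CPM in Müller glia, 1.71 CPM in rods, 1.65 CPM in bipolar cells and 0.958 CPM in cones. In amacrine cells coding Emb was at 14.9% of its ganglion cell level, with the 6 ganglion markers at 4.12% of theirs, and their part in it was not tested.

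Slc16a1 (ENSMUSG00000032902.1, plus strand, chr3:104638668-104658462) was shared by Müller glia and photoreceptors. Its level was 49.9 CPM in Müller glia (44.5 to 55.8, 306 counts), 42.5 CPM in rods (40.8 to 44.2, 2354 counts) and 19.6 CPM in cones (16.5 to 23.1, 143 counts). It was 4.48 CPM in bipolar cells (3.74 to 5.32, 130 counts) and 2.07 CPM in amacrine cells (1.69 to 2.52, 100 counts). In ganglion cells there were 0 of 3509890 counts (0 to 1.05 CPM). With 3 counts taken in place of 0, rods would be 49.7-fold and Müller glia 58.4-fold higher. All 6 rod markers, all 6 cone markers and 4 of 6 Müller glia markers were at 0 in that column as well. Müller glia stood 1.17-fold above rods (1.04 to 1.32), rods 2.17-fold above cones (1.83 to 2.59) and rods 9.48-fold above bipolar cells (7.94 to 11.4). Slc16a1 in rods was at 85.1% of its Müller glia level, and the Müller glia markers were at 2.89% of theirs. In Müller glia Slc16a1 was at 117% of its rod level, with rod markers at 5.91%. The part of RNA from other classes, or from cells without a column, in these values was not tested. All counts fell on 1 isoform, ENSMUST00000046212.1-1, whose model has 5 exons and ends 1204 bases before the annotated end of the gene.

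By size alone, 43.0% of tested gene pairs (38029 of 88358, over all 15 pairs of classes and genes with at least 20 counts in both) differed by 2-fold or more. For the 4 genes it was 39 of 50 pairs, with Bsg at 9 of 15, Nptn at 12 of 15, Emb at 9 of 10 and Slc16a1 at 9 of 10. Rods and cones were within 2-fold of each other in both Bsg and Nptn, and 2.17-fold apart in Slc16a1.

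The genes with the most similar profile over the 6 classes were found from each gene's shares of its summed CPM, as the percentage points that differ, among 5223 genes with at least 1000 counts. For Bsg they were Idh2, mitochondrial isocitrate dehydrogenase (5.53 points), Sat1, a polyamine acetyltransferase (5.61), and Rcbtb2 (7.55). For Nptn they were Mpst (5.26), Tradd (5.46) and Abhd14a (5.56). For Emb they were Hsf4, a heat shock factor (4.26), Dbndd1 (4.31) and March11 (4.70). For Slc16a1 they were Cst3, the protease inhibitor cystatin C (6.38), Asrgl1 (8.45) and Rasl11a (9.0).

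The transporters and partners of the family were taken from a list of 29 genes, of which 23 were in the table. Slc16a5, Slc16a9, Slc16a10, Slc16a12, Slc16a14 and Slc5a12 were not analysed here. Of the 23 genes, Müller glia were highest for 9, amacrine cells for 6, bipolar cells for 4, cones for 2, rods for 2 and ganglion cells for 0. Between Müller glia and rods, 3 of 9 tested list genes were 2-fold or more higher in Müller glia and 2 in rods, with a median log2 ratio of 0.71 against -0.07 over all 5905 genes tested. For that pair 48.1% of all genes were past 2-fold in either direction, 26.2% higher in Müller glia and 21.9% higher in rods. Between bipolar cells and Müller glia, 5 of 10 were higher in Müller glia and 1 in bipolar cells, with a median log2 ratio of -1.41 for bipolar cells over Müller glia against 0.03 over all genes. Of all genes 38.2% were past 2-fold for that pair, 22.8% higher in Müller glia and 15.4% higher in bipolar cells.

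**Figure D5:**
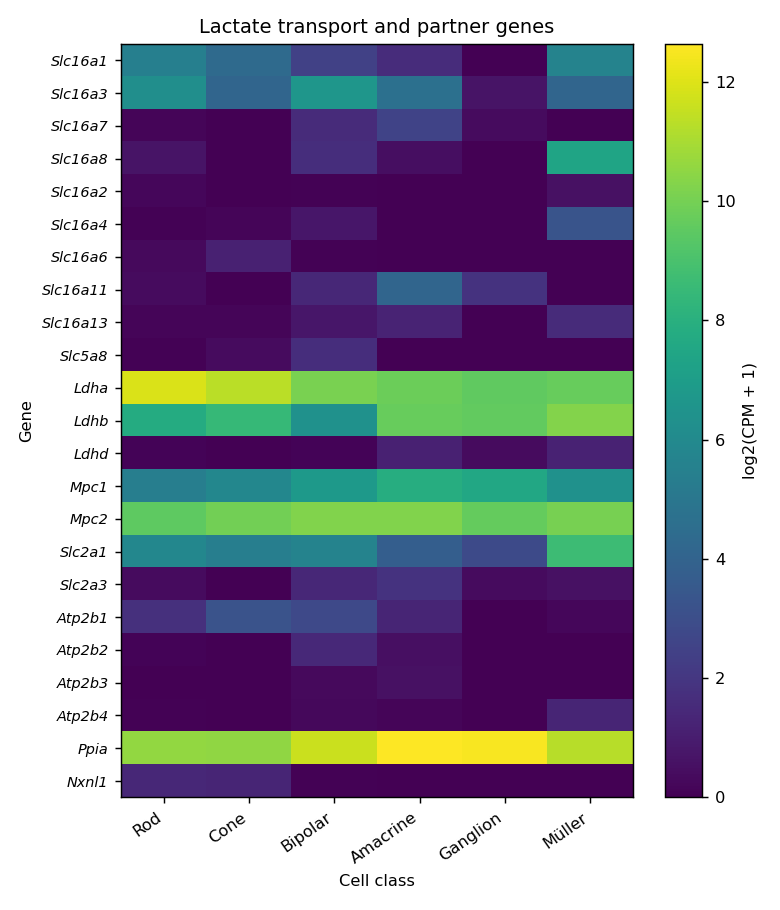
Levels of the 23 measured transporter and partner genes by cell class, shown as log2 of CPM plus 1 in a heat map with 1 row per gene and 1 column per class. Slc16a8 and Slc2a1 were highest in Müller glia, Ldha in rods and Slc16a3 in bipolar cells.

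The genes of the lactate transporters differed in the order of the classes. Slc16a3 encodes MCT4, also a partner of basigin, and stood at 99.2 CPM in bipolar cells, 75.5 CPM in rods and 23.9 CPM in amacrine cells. Müller glia had 16.6 CPM, cones 16.4 CPM and ganglion cells 0.570 CPM (2 counts). Cones and Müller glia were thus close in Slc16a3, and rods were above both. Slc16a7, which encodes MCT2, the partner of embigin, was 4.81 CPM in amacrine cells, 1.93 CPM in bipolar cells, 0.144 CPM in rods and 0.285 CPM in ganglion cells (1 count), with 0 counts in cones and Müller glia. Ganglion cells, the class with the highest Emb, therefore had 1 count of it. Slc16a8 encodes MCT3, the lactate transporter of the pigment epithelium, and was 165 CPM in Müller glia and at most 2.17 CPM elsewhere. It moved with the pigment epithelium markers given above. Slc16a11 was 16.4 CPM in amacrine cells and at most 2.56 CPM elsewhere.

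Enzymes and carriers that make or use lactate and pyruvate were also split by class. Ldha, the lactate dehydrogenase subunit known from glycolytic tissue, was 3893 CPM in rods, 2579 CPM in cones and 738 to 1094 CPM in the other 4 classes. Ldhb, the subunit known from oxidative tissue, was 1269 CPM in Müller glia, 832 CPM in amacrine cells and 762 CPM in ganglion cells. It was 348 CPM in cones, 217 CPM in rods and 81.9 CPM in bipolar cells. Photoreceptors were thus the 2 highest classes in Ldha, and bipolar cells the lowest in Ldhb. Mpc1, a subunit of the mitochondrial pyruvate carrier, was 235 CPM in amacrine cells and 41.0 CPM in rods, the highest and the lowest class, and Mpc2, its partner subunit, lay between 723 CPM in rods and 1210 CPM in bipolar cells. Slc2a1, the glucose transporter GLUT1, was 401 CPM in Müller glia and 6.27 to 55.7 CPM in the other classes.

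The calcium pumps that take basigin or neuroplastin as a subunit had few counts. Atp2b1 was 8.35 CPM in cones, 5.96 CPM in bipolar cells, 2.36 CPM in rods and 1.51 CPM in amacrine cells. Müller glia had 0.163 CPM (1 count) and ganglion cells 0 counts. The class with the highest Nptn was thus among the lowest in Atp2b1. Atp2b2, Atp2b3 and Atp2b4 were at most 1.72 CPM in any class. Of these, Atp2b4 was highest in Müller glia, at 1.47 CPM (9 counts) against at most 0.207 CPM elsewhere. Of the ligands of basigin, Ppia (cyclophilin A) ran from 1465 CPM in cones to 6351 CPM in amacrine cells. Nxnl1, whose short product is the rod-derived cone viability factor and whose products were not separated here, was 1.64 CPM in rods (91 counts) and 1.51 CPM in cones (11 counts), with at most 2 counts in any other class.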

How the data were processed

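Whole-number counts for every isoform in each class, and models of the transcripts, were deposited by the authors. FLAIR, which assembles isoforms from long reads, is the source those models name in the file. The deposited coordinates are on GRCm38 (mm10, per the submitters' processing notes). Aligner, base caller, cell typing, doublet treatment and collapse of molecular identifiers are not given in the sources used here. Models exist for 36426 of 44325 isoforms and for 9 of the 10 isoforms described. No column of values was left unused.

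Counts were summed per gene and divided by the column total. Of 13452 Ensembl genes, 13448 matched a symbol. Exon types and sequences came from GENCODE M21. Python 3.11.15 with numpy 2.4.6, pandas 2.3.3, scipy 1.17.1, matplotlib 3.10.9 and biopython 1.88 was used, also for the trimmed mean of M-values and median-of-ratios factors. The calculations were checked on simulated data. The planned count test over libraries was not possible, because the columns name none.

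Genes named were the 4 genes, the transporter and partner list, and the 3 genes nearest to each in profile. Isoforms named held at least 5% of a gene's counts in a class with at least 100 counts of it. ENSMUST00000225460.1 is an exception, since it passed 5% only in bipolar cells (14.6%), where Emb had 96 counts. Genes and lists were chosen with earlier results of these data known. Alternatives were other scalings, isoform sets, count minimums and thinning to the smallest total (20 draws). For the 2-exon Emb transcripts and, for the 12-base insert, leaving out the nonsense-mediated decay isoform, they were chosen after seeing the data.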

Additional observations from a re-analysis of the deposited data

How the results depend on the processing

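Of 118 alternative values of ratios between classes, isoform shares and counts of pairs, 107 stayed within counting error or within 1.5 times for counts, and 11 moved. Only the ratios between classes could be scored as reversed, and 0 were. Many shares could not move. The minimum of 10 counts per isoform dropped no isoform of the 4 genes, and all counts of Bsg and Nptn were long or short. Ensembl transcripts only changed no isoform behind the shares of Bsg and of the 22-base and 274-base Nptn exons. Of 96 alternative values of single class levels, 24 moved out of their counting interval, and Nptn in bipolar cells moved most, from 20.8 to 9.45 CPM with Ensembl transcripts only. Bsg in Müller glia over bipolar cells was 3.48-fold with trimmed mean of M-values scaling and 4.53-fold with median-of-ratios scaling. The latter gave 2.29-fold for Nptn in Müller glia over ganglion cells, 3.67-fold for Emb in ganglion over amacrine cells and 1.53-fold for Slc16a1 in Müller glia over rods. With Ensembl transcripts only, the long Nptn share was 0 in amacrine cells, bipolar cells, cones and rods, because the long isoform has no such identifier. With at least 100 counts in each class, 18636 gene pairs (36.4%) were past 2-fold and 29 of 38 pairs of the 4 genes, and 1561 (4.68%) were past 50 points and 14 of 28. The cause of the lower shares was not tested. The order of amacrine cells and rods in Bsg changed under both scalings and with Ensembl transcripts only, and that of cones and rods in Nptn with the latter. The mean of each long and 2-exon share over the 20 thinned draws lay within its interval. Random thinning leaves the expected share unchanged, so this mean cannot show an effect of depth. The ganglion cell column has the smallest total and was not thinned.

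No paired analysis was possible because no column states a library or a replicate number, and leaving out a replicate was not run for the same reason. Depth limits the cone values of Nptn (54 counts) and Emb (8 counts) and the ganglion cell values of Nptn (176 counts). The animals behind each column, and the differences between them, were not analysed here.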
